A study of Homo sapiens with 42 samples.

Results

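The genes described here are those of haem synthesis: ALAS1, ALAS2, ALAD, UROS, UROD, CPOX, PPOX and FECH, which encode enzymes of the pathway, and SLC25A38, which encodes a mitochondrial carrier and not an enzyme. They were taken by name, as the rows of both count tables whose Ensembl identifiers carry these symbols, and so make up 9 of 58243 genes. These 9 genes do not cover every step of the pathway. All 9 passed the filter on low counts in both kinds of RNA.

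K562 is an established cell line from a chronic myeloid leukaemia that depends on the fused BCR-ABL1 kinase, and all groups shared this line and its fused kinase. Whole-cell mRNA was measured in untreated cells (CTRL), after 1 μM imatinib (IM), which inhibits that kinase, for 1, 6 and 18 h, after 5 μM JTE-607 (JTE), which inhibits the nuclease that cuts transcripts at their 3′ ends, for 1, 6 and 18 h, and after 110 mM KCl, an osmotic stress, for 1 and 3 h. Nuclear RNA was measured in CTRL, IM 1h, IM 18h, JTE 1h and KCl 1h. Each of the 14 groups held 3 libraries, 42 in all, which the study names biological replicates of 1 cell line.

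Haem is built from glycine and succinyl-CoA by a chain of enzymes that begins in the mitochondrion, passes through the cytosol and ends in the mitochondrion, where iron is inserted. The entry step has a housekeeping isoenzyme, ALAS1, and an erythroid isoenzyme, ALAS2, and red cell precursors use the second of these to feed haemoglobin. K562 cells can be pushed towards the erythroid lineage by several agents.

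Library totals ran from 16439848 to 62953314 counts in mRNA, with KCl 1h replicates 2 and 3 the deepest, and from 16175394 to 25103205 in nuclear RNA. In CTRL mRNA the erythroid markers TFRC and HBE1 had mean levels of 1332 and 1120 CPM (counts scaled to a common library total), and all 10 erythroid and K562 markers were above 60 CPM in every group mean. Of 12 markers of T cells, B cells, myeloid cells, liver, epithelium and fibroblasts, 11 stayed under 13 CPM in every group, while the epithelial EPCAM had 91.0 CPM in CTRL mRNA. Levels below are in CPM of the library total, and levels of different genes are set side by side only as CPM per kilobase of exon. Changes are log2 fold changes from edgeR's quasi-likelihood test. Their SE was worked out as the size of the log2 fold change divided by the square root of the F statistic. A gene was called where the Benjamini-Hochberg adjusted p over all genes tested was under 0.05 and the log2 fold change beyond 0.6 either way. Bulk counts cannot tell more cells of a type from more RNA per cell.

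On hg38 the entry isoenzymes lie at chr3:52198086-52214327 on the plus strand (ALAS1) and chrX:55009055-55031064 on the minus strand (ALAS2). ALAD lies at chr9:113386317-113401333, UROS at chr10:125784980-125823248, CPOX at chr3:98521132-98593723 and FECH at chr18:57548283-57586772, all on the minus strand. UROD lies at chr1:45012147-45015575, PPOX at chr1:161166410-161178013 and SLC25A38 at chr3:39383348-39397351, on the plus strand. These are the extents of the genes in the count table. That of CPOX is longer than in the GENCODE 44 annotation, which places it at chr3:98579446-98593648. Counts covered exons only. Of the exon bases of PPOX, 24.27% overlap exons of B4GALT3 on the other strand, and 8.48% of those of CPOX overlap CLDND1 on the same strand, so the counts of these 2 genes are less certain. The share is 0.14% for ALAS2 and 0 for the other 6. No member has an intron over 10000 bases in its canonical transcript, the longest intron the alignment allowed.

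RefSeq promoter windows on GRCh38.p14, 250 bases before to 50 bases after a start site, were at hand for 8 of the 9 members, in 10 windows (UROS has none). They were searched on both strands for GATA words, which erythroid GATA factors are known to favour, for TGAGTCA, a word bound by AP-1 and NF-E2 factors, and for CCNCNCCC, a word of KLF factors. The GATA words were AGATAA with its variant AGATAG, plus TGATAA with its variant TGATAG. ALAD and PPOX have 2 windows each, which overlap. A GATA word was in 4 of the 10 windows, against 25.0% of all 35116 windows, TGAGTCA was in 1, against 4.95%, and CCNCNCCC in 8, against 56.2%. The windows with a GATA word are printed because their genes are among those that rose together, and the window of ALAS1 because it is the other isoenzyme of the entry step. Capitals mark GATA words and TGAGTCA, read 5′ to 3′ on the strand of the gene.
ALAS2 (chrX:55030928-55031227, minus strand): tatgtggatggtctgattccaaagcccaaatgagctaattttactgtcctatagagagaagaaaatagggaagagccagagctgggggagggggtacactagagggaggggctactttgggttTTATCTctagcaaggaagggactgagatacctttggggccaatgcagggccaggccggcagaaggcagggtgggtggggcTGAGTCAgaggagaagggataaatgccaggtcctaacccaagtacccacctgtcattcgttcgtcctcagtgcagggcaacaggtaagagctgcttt
CPOX (chr3:98593562-98593861, minus strand): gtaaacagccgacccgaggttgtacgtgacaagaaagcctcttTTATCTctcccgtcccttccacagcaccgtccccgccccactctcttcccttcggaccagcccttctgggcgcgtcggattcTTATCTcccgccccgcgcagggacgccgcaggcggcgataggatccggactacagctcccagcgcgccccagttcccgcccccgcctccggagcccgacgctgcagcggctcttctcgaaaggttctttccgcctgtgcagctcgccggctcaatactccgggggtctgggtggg
ALAD, downstream window (chr9:113401071-113401370, minus strand): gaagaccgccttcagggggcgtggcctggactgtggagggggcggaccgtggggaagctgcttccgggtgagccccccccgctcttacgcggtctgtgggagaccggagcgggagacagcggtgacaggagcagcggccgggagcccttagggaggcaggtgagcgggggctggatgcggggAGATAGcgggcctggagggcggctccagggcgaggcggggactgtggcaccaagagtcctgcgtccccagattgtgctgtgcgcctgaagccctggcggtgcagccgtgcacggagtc
PPOX, downstream window (chr1:161166396-161166695, plus strand): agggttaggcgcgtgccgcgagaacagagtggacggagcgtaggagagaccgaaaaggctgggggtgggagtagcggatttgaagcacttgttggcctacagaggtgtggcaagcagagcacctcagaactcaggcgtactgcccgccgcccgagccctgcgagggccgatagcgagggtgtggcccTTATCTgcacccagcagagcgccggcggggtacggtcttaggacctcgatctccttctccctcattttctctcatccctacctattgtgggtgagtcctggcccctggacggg
ALAS1 (chr3:52197833-52198132, plus strand): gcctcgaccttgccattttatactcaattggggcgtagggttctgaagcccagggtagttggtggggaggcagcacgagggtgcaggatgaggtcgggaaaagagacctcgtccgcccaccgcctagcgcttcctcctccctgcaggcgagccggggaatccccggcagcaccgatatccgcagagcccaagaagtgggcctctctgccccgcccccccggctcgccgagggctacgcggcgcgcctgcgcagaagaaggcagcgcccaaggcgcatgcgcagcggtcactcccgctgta

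The GATA word of ALAS2 begins 127 bases before the start site, those of CPOX 207 and 125 bases before it, that of ALAD 68 bases before it and that of PPOX 63 bases before it. The ALAS1 window holds no GATA word and no TGAGTCA. The windows of FECH, UROD and SLC25A38 and the upstream windows of ALAD and PPOX hold none either. FECH was also called higher after imatinib (values below). Such matches describe letters and were not tested for binding.

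In CTRL mRNA the members spanned a wide range of levels. Per kilobase, UROD stood highest at 117 ± 8.33 CPM per kb (SD, n = 3), followed by FECH at 37.8 ± 6.15, SLC25A38 at 22.0 ± 2.44, ALAS2 at 17.4 ± 7.87 and ALAS1 at 13.1 ± 0.586. CPOX (10.9 ± 1.32), UROS (4.96 ± 1.45), PPOX (4.29 ± 0.844) and ALAD (3.76 ± 0.674) were lower. The length used merges all annotated exons of a gene, 6643 bases for UROS and 2536 for ALAS1, and may exceed that of the expressed transcript. In plain CPM, UROS (33.0) and ALAS1 (33.3) were alike in CTRL mRNA, so the order rests in part on this length. The libraries of SLC25A38 and ALAS2, of ALAS2 and ALAS1, of UROS and PPOX, and of PPOX and ALAD overlapped, so these neighbours were not separated beyond their spread. The order in nuclear CTRL libraries was the same except that PPOX came before UROS, and those 2 overlapped.

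ALAS2 varied far more between replicates than ALAS1. Its median coefficient of variation over the 9 mRNA groups was 45.0%, against 4.46% for ALAS1, and the other members lay between 9.18% (SLC25A38) and 26.2% (UROS). In CTRL mRNA, ALAS2 was at 52.0, 40.4 and 18.9 CPM in replicates 1, 2 and 3, and in IM 1h at 39.0, 50.01 and 18.8 CPM. Replicate 3 was the lowest in 8 of the 9 mRNA groups. In IM 6h it was the highest instead, at 288 CPM, against 63.0 and 96.2 CPM in replicates 1 and 2, and IM 6h replicate 3 was also the highest of its group for ALAD, UROS, UROD, CPOX, PPOX, FECH and SLC25A38 and the lowest for ALAS1. That library stands apart, and estimates at 6 h are given with and without it. The mapping statistics in the supplement of the study number the first and the second of the untreated mRNA libraries the other way round from the count table. Replicate numbers here follow the count table, so which of these libraries is replicate 1 or 2 is uncertain. For all members but ALAS1 and PPOX, CTRL replicate 1 lay nearer IM 1h replicate 2, and CTRL replicate 2 nearer IM 1h replicate 1. Group values do not depend on the numbering. In nuclear CTRL the ALAS2 libraries held 23.1, 35.8 and 60.7 CPM, and replicate 1 was the lowest in 4 of the 5 nuclear groups.

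**Figure D1:**
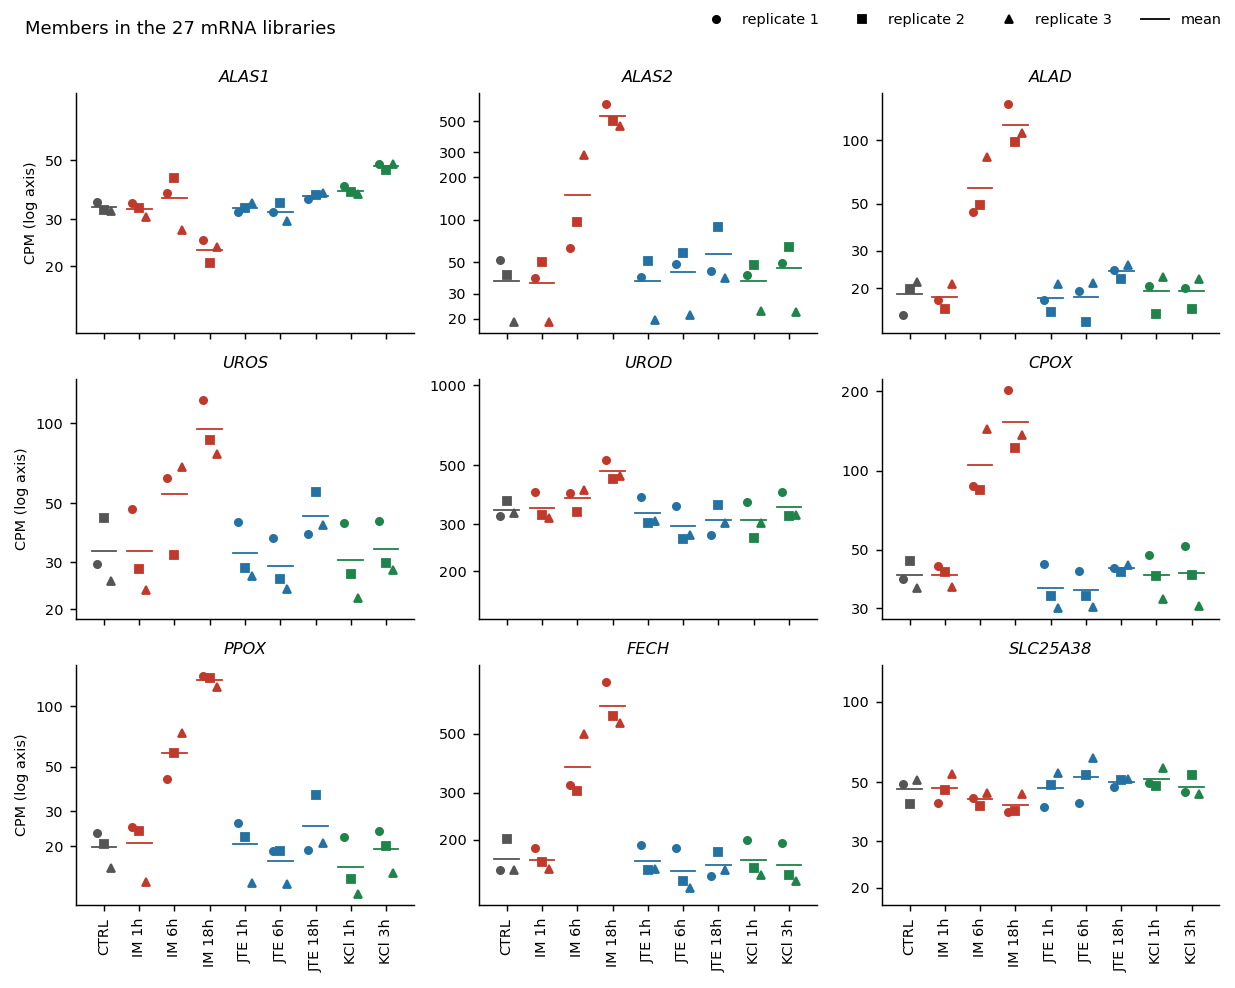
Level of each of the 9 members in the 27 mRNA libraries, in CPM on a log axis, by group, with a marker for each replicate and a bar for the group mean. The IM 18h libraries of ALAS2, ALAD, UROS, UROD, CPOX, PPOX and FECH all lie above the CTRL libraries. Those of ALAS1 lie below them, and SLC25A38 stays between 38.6 and 61.3 CPM throughout.

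After 18 h of imatinib, 6 of the 9 members were called higher in mRNA and none lower, where 17.2% of all genes tested were called higher and 13.2% lower. The median log2 fold change of the members was 1.88, against 0.04 over all genes tested. The risers included the erythroid entry enzyme, enzymes of the middle of the pathway and the enzyme that inserts iron, while the housekeeping entry enzyme had a negative log2 fold change and was not called.

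ALAS2, the erythroid 5-aminolevulinate synthase, showed the largest rise of the members. Its IM 18h libraries held 662, 497 and 465 CPM, a mean of 541 ± 105 (SD, n = 3) against 37.1 ± 16.8 in CTRL. All IM 18h libraries were above all CTRL libraries, by 14.2-fold in the fit (log2 fold change 3.83 ± 0.64, adjusted p = 9.0e-05, edgeR).

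ALAS1, the housekeeping isoenzyme, was at 35.02, 32.7 and 32.3 CPM in CTRL and at 25.1, 20.6 and 23.6 CPM in IM 18h. The groups did not overlap and the IM 18h libraries were the lower ones. Its log2 fold change was -0.56 ± 0.12, with an adjusted p of 0.00062 by edgeR, but it missed the fold change limit and was not called. The estimate went past that limit, at values from -0.60 to -0.65, when 1 library (the second or the third of CTRL, or the first of IM 18h) was dropped, without a filter on low counts, on thinned counts and without genes over 1% of the counts, so the call of ALAS1 at 18 h rests on where the limit falls.

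The isoenzymes were also set against each other within each library. The ALAS2 level per kilobase was 1.31 ± 0.552 times that of ALAS1 in CTRL mRNA (n = 3, from 0.695 to 1.76) and 27.8 ± 4.06 times in IM 18h (from 23.4 to 31.4). In IM 6h the ratio ran from 1.99 to 12.5, and in the JTE and KCl groups the library values lay between 0.548 and 2.86. In nuclear RNA it was 1.08 ± 0.504 in CTRL and 26.8 ± 11.5 in IM 18h. These ratios are given as a description.

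**Figure D2:**
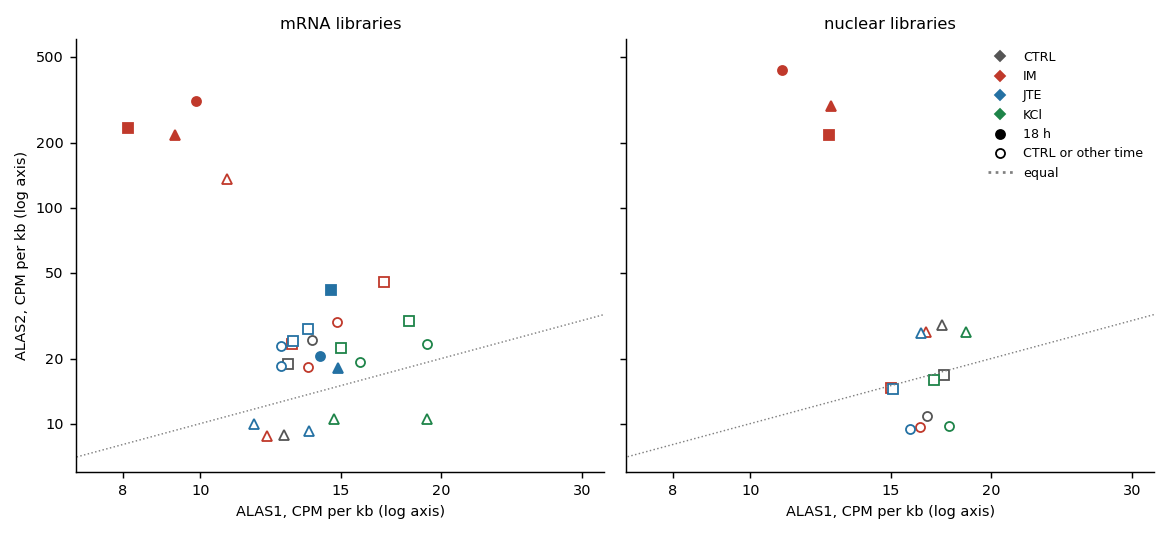
ALAS2 against ALAS1 in each library, both in CPM per kilobase of exon on log axes, for mRNA and nuclear RNA, with colours for the treatment, filled markers for 18 h, marker shapes for replicates 1 (circle), 2 (square) and 3 (triangle), and a dotted line where the levels are equal. The IM 18h libraries lie far above the line, at ratios of 23.4 to 31.4 in mRNA, and the highest other library is IM 6h replicate 3 at 12.5.

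The next enzyme of the pathway, ALAD, joins 2 molecules of 5-aminolevulinate into porphobilinogen. It was at 14.95, 19.8 and 21.4 CPM in CTRL and at 148, 97.6 and 108 CPM in IM 18h. Every IM 18h library was above every CTRL library, and the rise was 6.16-fold (log2 fold change 2.62 ± 0.22, adjusted p = 6.9e-09, edgeR).

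UROS closes the porphyrin ring and UROD removes carboxyl groups from it. UROS held 29.5, 43.8 and 25.5 CPM in CTRL and 122, 86.5 and 76.6 CPM in IM 18h, without overlap (log2 fold change 1.496 ± 0.32, adjusted p = 0.00063, edgeR). UROD, the most abundant member per kilobase in CTRL, held 321, 367 and 330 CPM in CTRL and 525, 445 and 454 CPM in IM 18h. The UROD groups did not overlap either, but its log2 fold change of 0.45 ± 0.13 (adjusted p = 0.0083, edgeR) stayed short of the fold change limit, so it was not called.

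CPOX and PPOX carry out the oxidation steps that yield protoporphyrin, and FECH, ferrochelatase, inserts the iron. CPOX rose from 38.9, 45.3 and 35.9 CPM to 203, 122 and 136 CPM (log2 fold change 1.91 ± 0.23, adjusted p = 7.1e-07, edgeR). PPOX went from 23.2, 20.5 and 15.6 CPM to 142, 139 and 125 CPM, a 6.66-fold rise (log2 fold change 2.74 ± 0.32, adjusted p = 6.7e-07, edgeR). FECH went from 153, 201 and 153 CPM to 783, 581 and 549 CPM (log2 fold change 1.88 ± 0.19, adjusted p = 1.1e-07, edgeR). None of these 3 genes had overlapping groups, and IM 18h replicate 1 was the highest library for each of them.

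SLC25A38, the carrier that brings glycine into the mitochondrion, was at 49.4, 41.2 and 51.1 CPM in CTRL and at 38.6, 39.0 and 45.0 CPM in IM 18h. These groups overlapped and its log2 fold change of -0.24 ± 0.14 was not called (adjusted p = 0.15, edgeR). Per kilobase, ALAS2 came to the top of the members in IM 18h at 254 ± 49.4 CPM per kb, above UROD at 163 ± 14.9 and FECH at 143 ± 28.3, and ALAS1 to the bottom at 9.11 ± 0.892. UROD and FECH overlapped in that order, as did PPOX with ALAD, ALAD with SLC25A38, and SLC25A38 with UROS.

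**Figure D3:**
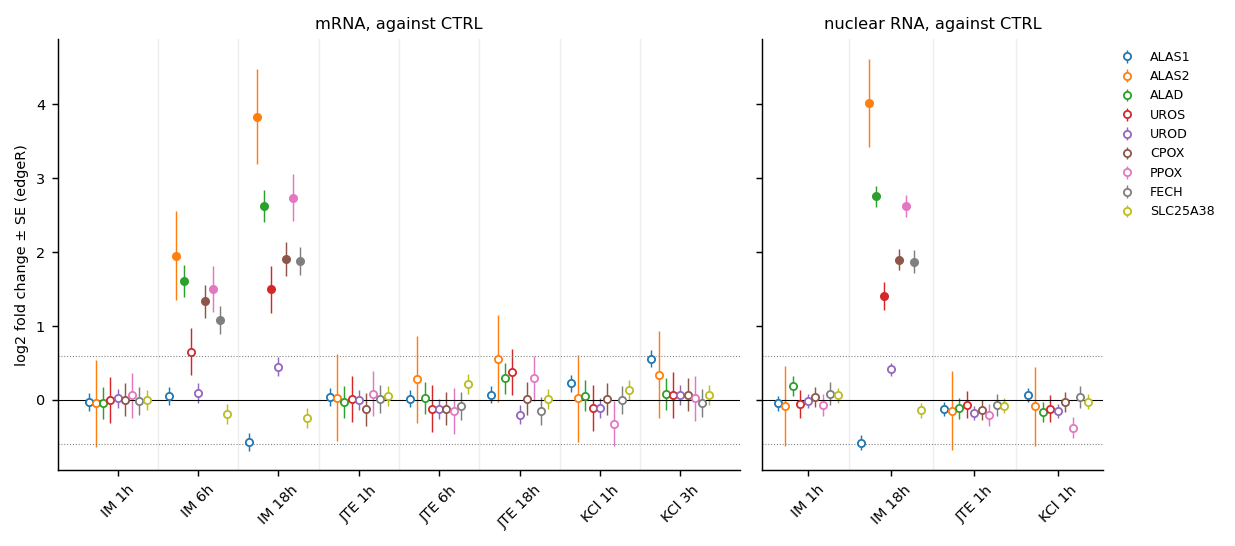
Log2 fold change against CTRL (edgeR) with the SE worked out from its F statistic for each member, in 8 mRNA and 4 nuclear comparisons of 3 against 3 libraries. Filled points were called and dotted lines mark the fold change limit of 0.6. Filled points appear at IM 6h and IM 18h only, and the largest is ALAS2 in nuclear IM 18h at 4.02.

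The course over time was read from the earlier imatinib groups. After 1 h no member was called, with log2 fold changes from -0.05 to 0.06 and 0 members at an unadjusted p under 0.05. DESeq2 also called 0 there, and edgeR called 0.0166% of all genes tested. After 6 h, 5 members were called higher (ALAS2, ALAD, CPOX, PPOX and FECH) and none lower, where 5.82% of all genes were called higher. The member median was 1.09, against 0.04 over all genes.

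ALAD was at 45.8, 49.5 and 83.3 CPM in IM 6h, all above CTRL (log2 fold change 1.61 ± 0.21, adjusted p = 2.3e-05, edgeR). PPOX held 43.3, 58.3 and 73.3 CPM (1.4995 ± 0.31), CPOX 87.1, 84.4 and 144 CPM (1.33 ± 0.22), and FECH 320, 304 and 497 CPM (1.09 ± 0.19), each without overlap with CTRL. ALAS2 rose by 1.95 ± 0.60 on the log2 scale (adjusted p = 0.032, edgeR) with libraries of 63.0, 96.2 and 288 CPM. Without IM 6h replicate 3, the library that stands apart, the ALAS2 estimate was 1.01 with an adjusted p of 0.32 and its call was lost, while ALAD (1.27), PPOX (1.27), CPOX (1.01) and FECH (0.80) stayed called. The ALAS2 call at 6 h was also lost when any 1 of the CTRL libraries was left out, at adjusted p from 0.051 to 0.16 and log2 fold changes from 1.59 to 2.28.

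UROS was at 62.2, 31.9 and 68.2 CPM in IM 6h, which overlapped CTRL, and its log2 fold change of 0.65 ± 0.31 was not called (adjusted p = 0.17, edgeR), except without a filter on low counts (0.61). ALAS1 (0.05), UROD (0.09) and SLC25A38 (-0.19) were not called either. Without IM 6h replicate 3 the estimates of these 4 genes were 0.42, 0.19, 0.01 and -0.25, and none was called. ALAS1 ran from 27.4 to 43.1 CPM in IM 6h, a wider range than in any other mRNA group.

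From 6 to 18 h of imatinib, tested directly, 3 members were higher at 18 h, where 2.48% of all genes were called higher, and 1 was lower, where 1.93% were called lower. ALAD rose by 1.01 ± 0.21 on the log2 scale, PPOX by 1.24 ± 0.30 and FECH by 0.80 ± 0.19, and ALAS1 fell by 0.62 ± 0.12 (adjusted p from 0.0032 to 0.014, edgeR). ALAS2 had the largest estimate, 1.88 ± 0.59, but missed the threshold (adjusted p = 0.053, edgeR), and UROS (0.84) and CPOX (0.57) were not called. ALAS2 was called with DESeq2 (adjusted p = 0.016), with library totals alone (adjusted p = 0.046, edgeR) and without a filter on low counts, and UROS with DESeq2 (adjusted p = 0.048) and without that filter. Without IM 6h replicate 3, ALAS2 (2.79) and CPOX (0.87) were called as well, giving 6 members, with ALAD at 1.33, PPOX at 1.43, FECH at 1.05 and ALAS1 at -0.78. Only ALAD stayed called without IM 6h replicate 1 or without IM 6h replicate 2, and only ALAS1 without IM 18h replicate 1. ALAS1 lost its call without IM 18h replicate 2 (-0.54).

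JTE-607 was given for the same times as imatinib. None of the members was called after 1, 6 or 18 h of JTE-607 in mRNA, where 0.851%, 13.2% and 5.39% of all genes tested were called, and DESeq2 called none of them as well. No member had an unadjusted p under 0.05 in these 3 comparisons. The largest estimate was that of ALAS2 at 18 h, 0.56 ± 0.59, with libraries of 43.7, 88.9 and 38.7 CPM that overlapped CTRL. Between 6 and 18 h of JTE-607, 0 members were called by edgeR or DESeq2 and 0 had an unadjusted p under 0.05, where 13.4% of all genes were called. Replicate numbers pair these groups, but the p-values come from a fit without a replicate block.

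Imatinib and JTE-607 were compared directly at matched times. At 6 h, 5 members were called higher in imatinib and none lower, where 13.6% of all genes were called higher. These were ALAD (log2 difference 1.59 ± 0.21), PPOX (1.65 ± 0.31), CPOX (1.45 ± 0.22), FECH (1.16 ± 0.19) and ALAS2 (1.67 ± 0.59, adjusted p = 0.035, edgeR), and ALAS2 lost its call without IM 6h replicate 3 (0.76, adjusted p = 0.36), JTE 6h replicate 1 (1.78, adjusted p = 0.067) or JTE 6h replicate 3 (1.34, adjusted p = 0.14). It was also lost in a fit of only these groups (adjusted p = 0.098, edgeR). Without IM 6h replicate 3, ALAD (1.27), PPOX (1.45), CPOX (1.16) and FECH (0.90) stayed called. The replicate numbers pair these groups, and with the replicate as a block UROS was called too (0.81, adjusted p = 0.021, edgeR), as it was with library totals alone, without a filter on low counts, and without IM 6h replicate 2 or JTE 6h replicate 1. SLC25A38 was lower in imatinib, with a log2 difference of -0.40 (adjusted p = 0.024, edgeR) that became -0.44 without IM 6h replicate 3, both short of the fold change limit.

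At 18 h, 7 members were called higher in imatinib than in JTE-607, where 16.7% of all genes were called higher, and 1 was called lower, where 13.6% were. The differences were 3.27 ± 0.63 for ALAS2, 2.45 ± 0.31 for PPOX, 2.33 ± 0.22 for ALAD, 2.03 ± 0.19 for FECH, 1.89 ± 0.23 for CPOX and 1.12 ± 0.31 for UROS. UROD was called here at 0.65 ± 0.13 (adjusted p = 0.00042, edgeR), with 274, 354 and 303 CPM in JTE 18h, all below the imatinib libraries. It fell short of the limit, at values from 0.52 to 0.60, without IM 18h replicate 1, JTE 18h replicate 1 or JTE 18h replicate 3, and without a filter on low counts. ALAS1 was lower in imatinib by -0.64 ± 0.12 (adjusted p = 0.00018, edgeR) and was at 35.8, 36.9 and 37.7 CPM in JTE 18h, but lost its call at -0.57 without IM 18h replicate 2. Both comparisons of imatinib with CTRL and with JTE-607 use the same imatinib libraries.

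KCl moved none of the members past the limits. After 1 h, 0 members were called by edgeR or DESeq2 and 0 had an unadjusted p under 0.05, where 5.45% of all genes were called. After 3 h, 0 members were called, where 11.9% of all genes were, but ALAS1 came close. It held 48.6, 46.2 and 48.7 CPM in KCl 3h, all above the CTRL libraries, with a log2 fold change of 0.56 ± 0.12 and an adjusted p of 0.0016 (edgeR). It was the only member with an unadjusted p under 0.05 there, and it passed the limit, at 0.60, when CTRL replicate 1 was left out. Between 1 and 3 h of KCl no member was called by edgeR or DESeq2, where 3.29% of all genes were, and 1 member (ALAS1, 0.33 ± 0.12) had an unadjusted p under 0.05. The p-values there do not use the pairing of the KCl groups by replicate number.

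Nuclear RNA was measured alongside mRNA for 4 of the treatments. After 18 h of imatinib, 6 members were again called higher and none lower, where 17.2% of all nuclear genes tested were called higher and 15.4% lower. The called genes were the same 6 as in mRNA, and the member median was 1.87 against 0 over all genes. ALAS2 held 926, 463 and 629 CPM in nuclear IM 18h, all above the CTRL libraries, and rose 16.2-fold (log2 fold change 4.02 ± 0.59, adjusted p = 0.00022, edgeR).

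ALAD reached 173, 113 and 132 CPM from 18.5, 18.8 and 21.9 CPM in nuclear CTRL (log2 fold change 2.75 ± 0.14), and PPOX 291, 219 and 255 CPM from 31.7, 40.7 and 46.2 CPM (2.63 ± 0.15). CPOX (1.90 ± 0.14), FECH (1.87 ± 0.15) and UROS (1.41 ± 0.18) followed, each without overlap with CTRL and with adjusted p of 9.1e-06 or smaller (edgeR). ALAS1 was lower, at 27.8, 31.8 and 31.96 CPM against 42.1, 44.3 and 44.1 CPM, but short of the fold change limit (-0.58 ± 0.10, adjusted p = 7.3e-05, edgeR), and it passed that limit without IM 18h replicate 2 (-0.62) or 3 (-0.61). UROD (0.41 ± 0.09, adjusted p = 0.0011, edgeR) was not called, and neither was SLC25A38 (-0.14 ± 0.10).

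At 1 h no member was called in nuclear RNA by edgeR or DESeq2 for imatinib, JTE-607 or KCl, where edgeR called 0.0456%, 8.52% and 23.8% of all nuclear genes. Unadjusted p-values under 0.05 were found for 0, 0 and 1 of the 9 members. They come from the fit without the replicate as a block, although replicate numbers pair the nuclear libraries. Such p-values do not measure change within pairs. The 1 gene was PPOX after KCl, at 26.4, 32.3 and 31.8 CPM against 31.7, 40.7 and 46.2 CPM in CTRL, where the groups overlapped (log2 fold change -0.37 ± 0.15, adjusted p = 0.067, edgeR).

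The nuclear and mRNA responses were set against each other in a separate fit of 12 libraries for each response. No member differed between the fractions in any of the 4 responses by edgeR or DESeq2, where 0%, 0.0901%, 0.0605% and 0.668% of all genes did for IM 1h, IM 18h, JTE 1h and KCl 1h. No member had an unadjusted p under 0.05 in them. These fits did not use the pairing of the nuclear libraries either. For IM 18h the nuclear response minus the mRNA response was 0.25 ± 0.62 on the log2 scale for ALAS2, 0.18 ± 0.26 for ALAD and between -0.05 and 0.16 for the others, with the SE of ALAS2 the widest. Among levels in CTRL, ALAS1, UROD, PPOX and SLC25A38 were higher in nuclear RNA than in mRNA without overlap. The share of all genes that separate in this way was not computed, so this is not read as a trait of the members. PPOX had the highest ratio of these, with 39.5 ± 7.32 CPM in nuclear CTRL and 19.8 ± 3.89 CPM in mRNA CTRL (n = 3 each), and the ratios of the other 3 were 1.31, 1.37 and 1.19. The 2 tables come from different library types and were scaled apart.

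**Figure D4:**
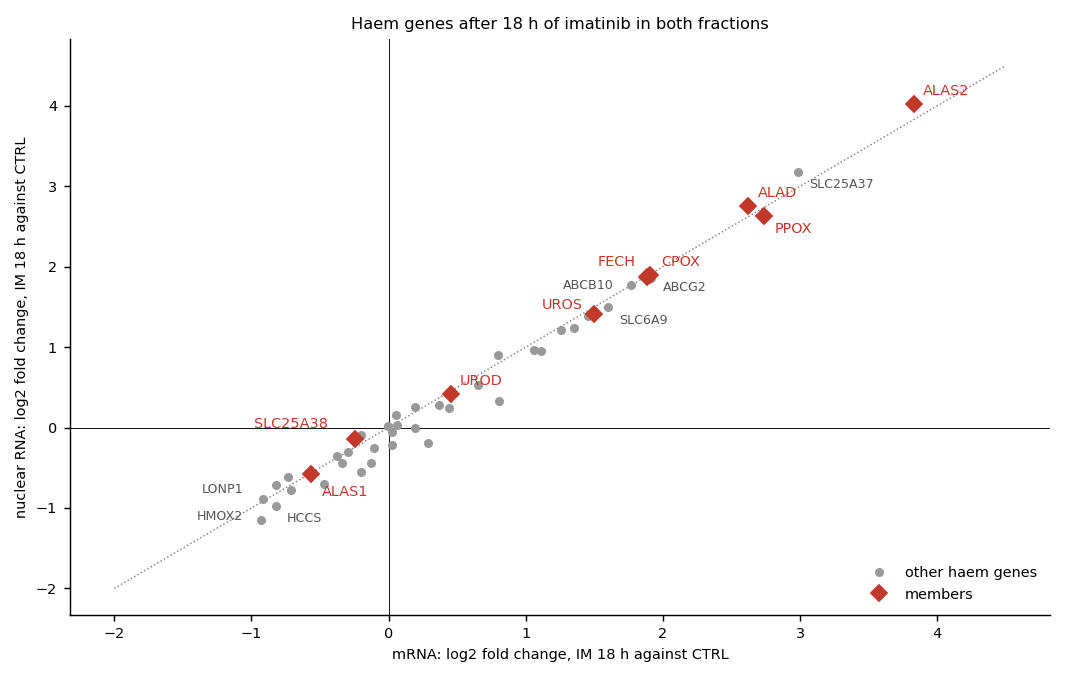
Log2 fold change at IM 18h against CTRL in nuclear RNA plotted against that in mRNA (edgeR, 3 against 3 libraries each) for the 9 members and the other haem genes tested in both. The dotted line marks equal change, and the members lie along it from ALAS1 at -0.56 and -0.58 to ALAS2 at 3.83 and 4.02.

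The other genes of haem handling were taken from 6 lists with 38 genes, of which 36 passed the filter in mRNA and 37 in nuclear RNA. At IM 18h, 12 of the 36 were called higher and 6 lower in mRNA, and 10 of the 37 higher and 7 lower in nuclear RNA. Of all genes tested, 17.2% were called higher and 13.2% lower in mRNA and 17.2% and 15.4% in nuclear RNA, so the counts of lower genes lie near those shares. In the list of haem trafficking, 7 of 13 tested genes were higher in mRNA and none lower, with a list median log2 fold change of 0.80. SLC25A37, mitoferrin, which carries iron into the mitochondrion, rose from 291 ± 27.6 to 2359 ± 569 CPM (log2 fold change 2.99 ± 0.30), and ABCG2, an exporter of porphyrins, from 1.12 ± 0.350 to 4.33 ± 1.80 CPM (1.91 ± 0.34). The mitochondrial transporter ABCB10 (1.77 ± 0.24) and TMEM14C (1.06 ± 0.09), which takes part in porphyrin import, rose as well.

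Haem breakdown was split. The haem oxygenase HMOX2 fell by 0.93 ± 0.15 on the log2 scale and the biliverdin reductase BLVRB rose by 1.25 ± 0.13, with 3 of the 4 genes of that list tested. Of the 3 genes of haem a and cytochrome c maturation, COX10 (-0.82 ± 0.13) and HCCS (-0.82 ± 0.14) fell and none rose. Among the 5 genes of substrate supply, the glycine transporter SLC6A9 rose (1.60 ± 0.58) and SHMT2, which makes glycine in the mitochondrion, fell (-0.73 ± 0.23), and SLC6A9 lost its call when replicate 1 or 3 was removed from CTRL or replicate 1 or 2 from IM 18h (adjusted p from 0.063 to 0.13, edgeR).

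In the list of 8 genes of ALAS turnover, iron-responsive and iron-sulphur factors, the mitochondrial proteases LONP1 (-0.91 ± 0.27) and CLPP (-0.71 ± 0.12) fell and none rose. Of 4 transcription factors, TAL1 (1.45 ± 0.14), KLF1 (1.11 ± 0.14) and BACH1 (0.65 ± 0.16) rose, and BACH1 dropped to 0.58 to 0.59, short of the limit, when replicate 1 or 3 was removed from CTRL or replicate 1 from IM 18h, and to 0.57 without a filter on low counts. GATA1 was not called (-0.20 ± 0.15). In nuclear IM 18h, TAL1 (1.38) and KLF1 (0.96) were called higher, and BACH1 (0.53) was not called. In nuclear RNA at 18 h the 2 largest rises were again SLC25A37 (3.18 ± 0.25) and ABCG2 (1.85 ± 0.41), and the 2 largest falls HMOX2 (-1.15 ± 0.13) and HCCS (-0.98 ± 0.10).

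Outside IM 18h fewer of these genes moved. At IM 6h, 5 of 36 were called higher and none lower, where 5.82% of all genes were called higher, led by SLC25A37 (1.54 ± 0.28) and ABCB10 (0.91 ± 0.24). Without IM 6h replicate 3, SLC25A37 stayed called at 0.74, while ABCB10 (0.35) and ABCB6 (0.75, adjusted p = 0.11, edgeR) lost their calls, which left 3 of the 5. These were SLC25A37, TAL1 (0.69) and KLF1 (0.66). The count was also 3 without CTRL replicate 1 or without CTRL replicate 3, where the same 2 genes lost their calls. At JTE 18h only LONP1 was called, lower (-1.20 ± 0.28), where 5.39% of all genes were called either way. At KCl 3h 3 of 36 were called, all lower, where 11.9% of all genes were called either way. They were ABCB6 (-1.16 ± 0.28), SLC48A1 (-0.80 ± 0.11) and BACH1 (-0.70 ± 0.16), BACH1 not without KCl 3h replicate 3 (-0.59). ABCB6 had a low level, 1.74 CPM in CTRL mRNA. In nuclear RNA only FLVCR2 was called at 1 h, higher in JTE 1h (0.644 ± 0.210 CPM) and KCl 1h (0.953 ± 0.507 CPM) than in CTRL (0.180 CPM), levels of a few counts a library. Of all nuclear genes, 8.52% were called at JTE 1h and 23.8% at KCl 1h. The FLVCR2 call at JTE 1h was lost with DESeq2 (adjusted p = 0.073) and when nuclear CTRL replicate 2 or 3 or JTE 1h replicate 1 was left out. None of the 36 genes was called at IM 1h, JTE 1h, JTE 6h or KCl 1h in mRNA. Of all genes, 0.0166%, 0.851%, 13.2% and 5.45% were called there.

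Over the 9 mRNA group means of log2(CPM + 0.5), the 6 genes that rose at IM 18h had Pearson correlations from 0.93 to 0.99 with each other, while ALAS1 had -0.59 to -0.67 with them and SLC25A38 -0.83 to -0.91. The 6 genes were picked by their rise at IM 18h, so high correlations among them follow in part from that choice. UROD, which was not called there, had correlations from 0.87 to 0.92 with them. All genes share the same libraries, so the values are a description. Among 8811 genes with a symbol and a mean of at least 10 CPM, the closest patterns were STRADB (r = 0.998) and AHSP (0.997) for ALAS2, TMEM63B (0.997) and EPB42 (0.996) for ALAD, WNK4 (0.997) and ANO10 (0.996) for CPOX, TPGS2 (0.997) and C17orf99 (0.991) for PPOX, and TNS1 (0.998) and TUBB1 (0.994) for FECH. AHSP stabilises alpha globin and EPB42 is a protein of the red cell membrane skeleton. Most of the closest genes were different ones when Spearman's rho was used in place of Pearson's r. For UROS the closest gene was ALDH5A1 (0.998), and for UROD they were VPS16 (0.994) and HOXB9 (0.984). ALAS1 was closest to CAMTA1 (0.964) and the pseudogene HNRNPCP2 (0.961), whose reads may be shared with its parent gene, and SLC25A38 to RNF4 (0.976) and E2F3 (0.974).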

How the data were processed

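The deposited values are raw counts, 1 table per kind of RNA. The authors trimmed and deduplicated reads with fastp, aligned them to hg38 with STAR (unique alignments, introns up to 10000 bases) and counted read pairs over exons with featureCounts. The annotation release is not given in the sources used here. The kit preserves strand, but no strand setting is stated for counting, so antisense reads may count for a gene. Duplicate removal without molecular identifiers may lower abundant transcripts.

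CPM used library totals. Each fraction was fitted once, with a term per group, by the quasi-likelihood method of edgeR 4.0.16 (R 4.3.3) after filterByExpr and TMM scaling. In all, 18095 mRNA and 21929 nuclear genes were tested with Benjamini-Hochberg adjustment. Responses in the fractions were compared by an interaction. The steps were tested on simulated data. Replicate numbers from the titles pair the nuclear libraries (same-number correlations from 0.234 to 0.891), IM 6h with JTE 6h, JTE 18h with JTE 6h and KCl 3h with KCl 1h, since each correlation was above 0.1.

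The text names all members, the called genes of 6 haem lists with the 2 largest rises and falls and at most 2 more a list, and per member the 2 most similar genes. The values of 1 similar gene and 1 erythroid marker are not reported here. Members and lists were chosen with earlier results of these data known. Alternatives were DESeq2 1.42.0, DESeq2 size factors, library totals, no filter, no fold change limit, only the compared groups, a replicate block, thinned counts, no genes over 1% of counts, and each library left out.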

Additional observations from a re-analysis of the deposited data

Results flagged for a closer look

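The change with imatinib differed between 6 and 18 h, in a direct test of the libraries at 18 h against those at 6 h (edgeR), for 4 of the 9 members. Of all genes tested, 2.48% were called higher and 1.93% lower in that test. The log2 difference was 1.01 for ALAD, 1.24 for PPOX, 0.80 for FECH and -0.62 for ALAS1. ALAD and FECH lost their calls in a fit of only those groups. Each of the 4 genes also lost its call in a fit with some library left out. No member was called in the tests of the nuclear against the mRNA response, of JTE 18h against JTE 6h or of KCl 3h against KCl 1h.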

How the results depend on the processing

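Over all 21 comparisons and all alternatives run, 0 of the 3015 member log2 fold changes reversed a call, 26 lost a call and 30 gained one; 277 uncalled values near 0 changed sign. The number of members called kept within 1.5 times that reported except in 2 comparisons. At KCl 3h it was 1 without the fold change limit and from 0 to 1 with a library left out. From IM 6h to IM 18h it was 2 (PPOX and ALAS1) in a fit of only those groups and from 1 to 6 with a library left out. With the replicate as a block, 6 members were called in that comparison (ALAS2 and UROS added), whose numbers do not pair the libraries (correlations from -0.304 to 0.251), 6 in IM 6h against JTE 6h, and the same 5 and 6 members at mRNA IM 6h and IM 18h and 6 at nuclear IM 18h as without it; the block changed no other call of a member. In the fit of only those groups ALAS2 was also not called at IM 6h (adjusted p = 0.13, edgeR), nor SLC25A37 (adjusted p = 0.11) or ABCB10 (adjusted p = 0.14), which left 3 of the other haem genes called there. Of those genes 7 were called higher and 3 lower there without the fold change limit, and 3 to 5 higher and 0 to 2 lower with a library left out. Fits with a block used the replicate numbers of the count table, and no other order was fitted. In mRNA the order of CTRL replicates 1 and 2 is uncertain. Between mRNA CTRL and IM 1h the same-number correlations were -0.236, -0.266 and 0.877 for replicates 1, 2 and 3. Between mRNA CTRL and JTE 1h they were -0.223, -0.244 and 0.860. The block may thus mismatch libraries in comparisons with mRNA CTRL, and unchanged calls there are no check of pairing.

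Counts of all genes called, against which the members are read, moved by over 1.5 times as follows. At mRNA IM 1h 3 became 6 with DESeq2, 13 without the filter, 1 in only those groups and 5 with the block, and at nuclear IM 1h 10 became 28, 48, 17 (library totals) and 69 (block). At JTE 1h 154 became 237 without the filter, 5 in only those groups and 258 with the block. Without the fold change limit, 1799 became 2898 at IM 6h, 975 became 1663 at JTE 18h, 798 became 1510 from IM 6h to 18h and 2431 became 3938 from JTE 6h to 18h. The 798 became 1213 without the filter and 1368 with the block. KCl 1h went from 986 to 465 in only those groups, KCl 3h against 1h from 596 to 990 (no filter) and 294 (only those groups), and nuclear KCl 1h from 5227 to 8022 (no filter). Between fractions, DESeq2, no filter and the block gave 32, 61 and 30 for 18 at IM 18h, 28, 62 and 19 for 12 at JTE 1h and 337, 400 and 310 for 141 at KCl 1h; thinning gave 7 at JTE 1h and 87 at KCl 1h, and IM 1h had 0 by edgeR (395 at an unadjusted p under 0.05), 0 by DESeq2 and 2 without the filter. With 1 library left out, 41 of 150 such counts moved as far.

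Of 126 group levels, 3 moved by over 1 SD with TMM library sizes, all at JTE 18h. With Spearman's rho 2 of the 18 similar genes were shared, and 15 with no minimum CPM.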
